A study of Mus musculus with 32 samples.

Results

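Ccl19, Ccl21a, Cxcl13, Cxcl12, Ccl8, Ccl22, Ccl17 and Cxcl9 are 8 mouse genes for chemokines, grouped here as those of lymphoid stroma and dendritic cells, though other cells can make them too. They are described here in thymus, spleen, mesenteric lymph node and peripheral lymph node of CD30L transgenic and wild type mice. Every probe set with 1 of these symbols in the annotation table of the array was taken, also where several symbols were given, which gave 12 of the 45101 probe sets on the array. Each tissue was tested with limma, a linear model with moderated errors, and the threshold was a Benjamini-Hochberg adjusted p under 0.05 over all probe sets kept. Between the genotypes no member probe set passed it in any tissue. The widest separations were higher Ccl19 and Ccl21a values in transgenic spleens and higher Ccl8 values in transgenic thymuses. Between tissues the members differed widely, and Ccl8 was 12.3-fold lower in mesenteric than in peripheral lymph nodes.

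Chemokines are small secreted proteins that direct the migration of leukocytes through receptors on the cell surface. In lymphoid organs Ccl19 and Ccl21a, both ligands of Ccr7, draw T cells and dendritic cells into T cell zones, and Cxcl13, the ligand of Cxcr5, draws B cells into follicles. Cxcl12, the ligand of Cxcr4, is made by many stromal cells, while Ccl17 and Ccl22, the ligands of Ccr4, come largely from dendritic cells. Mouse Ccl8 acts on Ccr8, and Cxcl9, the ligand of Cxcr3, is induced by interferon gamma. Much of the stromal production in nodes and spleen depends on lymphotoxin, a TNF family ligand of lymphocytes.

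All mice were females of the strain C57BL/6 and 12 weeks old. The transgenic animals carried a transgene named CD2-CD30L that, per the labels, makes T cells overproduce CD30 ligand (CD30L, symbol Tnfsf8), the TNF family ligand of the receptor CD30, at all times. Their littermates without the transgene are called wild type here. The 4 tissues were taken from each of 4 mice per genotype, which gave 32 arrays, 8 per tissue. The labels give neither the number of transgenic lines nor whether mouse numbers are shared by litter. RNA came from bulk tissue, so that fewer cells of a type and less RNA per cell cannot be told apart.

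Of the 12 probe sets, Cxcl12 had 3, Cxcl13 and Cxcl9 had 2 each, and the other 5 genes had 1 each. The deposited values were intensities on a linear scale. They are given as log2(intensity + 16) after negative values were set to 0, so that 4 is the lowest possible value. A fold on this scale understates differences of dim probe sets. The Cxcl12 probe set 1439084_at sat at 4 on 27 of the 32 arrays and passed the filter on low values in no tissue. Ccl17 passed it in both kinds of lymph node and in neither spleen nor thymus, so 11 member probe sets were tested in each kind of node, and 10 in spleen and 10 in thymus. The Ccl19 probe set is annotated with 10 symbols and the Ccl21a probe set with 9. These include Ccl21b, Ccl21c and Ccl21d for Ccl21a and the pseudogene Ccl19-ps1 for Ccl19, so their signals may come from several near-identical copies on chromosome 4.

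The promoters of Ccl21a and Ccl21d are shown because they let a reader see how alike these copies are. The windows are from RefSeq on GRCm38.p6 and run from 250 bases before to 50 bases after the gene start, for Ccl21a at chr4:42773942-42774241 on the minus strand and for Ccl21d at chr4:41903363-41903662 on the plus strand. Capitals mark the bases that differ.
Ccl21a: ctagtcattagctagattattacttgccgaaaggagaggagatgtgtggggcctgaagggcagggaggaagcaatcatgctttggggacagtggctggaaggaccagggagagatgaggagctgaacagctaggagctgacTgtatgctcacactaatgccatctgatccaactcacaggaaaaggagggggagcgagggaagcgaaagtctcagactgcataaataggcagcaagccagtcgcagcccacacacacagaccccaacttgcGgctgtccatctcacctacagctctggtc
Ccl21d: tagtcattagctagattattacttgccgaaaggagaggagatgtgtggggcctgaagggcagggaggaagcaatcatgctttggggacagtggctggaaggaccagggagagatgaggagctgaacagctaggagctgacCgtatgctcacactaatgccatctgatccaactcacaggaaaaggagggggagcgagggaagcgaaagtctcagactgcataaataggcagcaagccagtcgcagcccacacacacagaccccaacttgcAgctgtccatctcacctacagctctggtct
With the windows shifted by 1 base, 299 bases aligned with 2 mismatches, an identity of 99.3%. The substitutions, Ccl21a base first and counted from 1 at the 5′ end of the Ccl21a window, were T142C and G272A.

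The promoter of Ccl8 is shown because this gene had the widest difference between the 2 kinds of lymph node, and that of Ccl17 because it alone among the members held the palindrome TTCNNNGAA, the core to which STAT factors bind. Ccl8 is on the plus strand at chr11:82114935-82115234, with a TATAAA in capitals 32 bases before the start. Ccl17 is on the plus strand at chr8:94810203-94810502, with its TTCNNNGAA match in capitals 99 bases before the start.
Ccl8: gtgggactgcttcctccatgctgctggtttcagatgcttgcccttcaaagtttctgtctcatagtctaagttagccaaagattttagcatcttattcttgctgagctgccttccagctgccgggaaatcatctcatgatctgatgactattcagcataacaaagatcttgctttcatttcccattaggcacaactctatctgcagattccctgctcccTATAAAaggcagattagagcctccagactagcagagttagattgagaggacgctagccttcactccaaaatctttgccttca
Ccl17: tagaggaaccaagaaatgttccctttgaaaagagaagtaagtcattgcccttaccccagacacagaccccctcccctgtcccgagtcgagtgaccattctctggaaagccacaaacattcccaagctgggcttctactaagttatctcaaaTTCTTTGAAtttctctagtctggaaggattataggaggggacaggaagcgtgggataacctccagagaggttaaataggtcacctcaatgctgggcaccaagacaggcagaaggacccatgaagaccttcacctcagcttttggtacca
The search covered 5 motifs on both strands of 32851 promoter windows of the same length, and all 8 members had a window. TATAAA stood in the windows of 3 of the 8 members, Cxcl13, Ccl8 and Cxcl9, and in 13.6% of all windows. TTCNNNGAA stood in 1 of 8 and in 8.3% of all. The kappa B motif in its strict form stood in 0 of 8 and in 1.63% of all, and in a loose form that contains the strict one in 5 of 8 and in 50.8% of all. TTNNGCAA stood in Ccl21a and Cxcl13 and in 10.8% of all. A match in such a window is a description of its letters.

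The labelled tissues carried their defining markers. Rag1, the recombinase of lymphocyte precursors, lay between 12.5 and 12.8 on all thymus arrays. Glycam1, a product of high endothelial venules, lay between 12.9 and 13.4 on all lymph node arrays and at the lowest possible value on all spleen and thymus arrays. The Tnfsf8 probe set overlapped between the genotypes in every tissue, at 6.57 to 6.87 in transgenic and 6.62 to 6.71 in wild type spleens, and whether it covers the transgene is not stated in the labels, so it does not check them. Trimmed mean intensities ran from 106 to 272. Some arrays held transcripts of neighbouring tissue. Skeletal muscle stood in the peripheral nodes of transgenic mouse 1 and wild type mice 1 and 3. Exocrine pancreas stood in the mesenteric nodes of transgenic mice 1 and 3 and wild type mouse 2. Skeletal muscle also stood in the thymus of wild type mouse 2, and thymocyte transcripts in the spleen of wild type mouse 4. The mean of the exocrine pancreas list reached 7.28 among wild type spleens, against 5.77 among transgenic spleens. The signal of Actb at its 3′ end over that at its 5′ end, which reports on RNA quality, was 2.83 to 3.58 where the mouse number was 1 or 2 and 1.65 to 1.85 where it was 3 or 4, in spleens of either genotype. In thymus the ratio also split by mouse number, at 1.68 to 2.25 and 1.34 to 1.43. It was 3.10 in the mesenteric node of transgenic mouse 1, and 1.59 to 1.75 in the other mesenteric nodes.

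In spleen the Ccr7 ligands stood apart between the genotypes. Ccl19 read 11.33, 11.31, 11.29 and 11.46 in the transgenic spleens of mice 1 to 4, against 11.02, 10.92, 10.48 and 10.40 in the wild type spleens. All 4 transgenic spleens lay above all 4 wild type spleens, and the transgenic values were the tighter ones. Ccl19 was 1.56-fold higher in transgenic spleen (log2 difference 0.64 ± 0.16, SE, 95% interval 0.28 to 0.99), which did not pass the threshold after adjustment over 27022 probe sets (limma unadjusted p = 0.0029, adjusted p = 0.528). Ccl21a, the chemokine of the T zone stroma, read 11.79, 11.84, 11.92 and 12.16 in transgenic and 11.31, 11.46, 11.25 and 11.20 in wild type spleens. Again the groups did not overlap, with a log2 difference of 0.62 ± 0.12 (SE), a 95% interval of 0.35 to 0.89 and a fold of 1.54 (limma unadjusted p = 0.000559, adjusted p = 0.422). An exact permutation test of either probe set gave p = 0.0286, two-sided, the smallest that 4 against 4 mice allow.

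Ccl8 and Cxcl9 were also higher on average in transgenic spleens, with overlap. Ccl8 read 6.97, 7.24, 7.42 and 7.52 in transgenic spleens, against 7.02, 6.68, 6.87 and 7.04 in wild type spleens, and transgenic mouse 1 lay among the wild type values. The log2 difference was 0.39 ± 0.15 (SE; limma adjusted p = 0.564). The Cxcl9 probe set 1456907_at read 6.87, 7.47, 7.70 and 7.54 in transgenic and 6.94, 6.72, 7.14 and 6.53 in wild type spleens, a log2 difference of 0.57 ± 0.20 (SE; limma adjusted p = 0.564). Its other probe set, 1418652_at, read 8.79, 8.95, 9.33 and 9.20 in transgenic and 8.68, 8.31, 8.88 and 8.88 in wild type spleens, with transgenic mouse 1 again below the highest wild type value. Ccl17 was at or below 0 as deposited on 5 of the 8 spleen arrays.

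Over the 10 member probe sets tested in spleen, 0 passed the threshold (0.0111% of all probe sets did). At an unadjusted p under 0.05, 4 of 10 were higher and 0 lower in transgenic spleens, against 4.21% of all probe sets higher and 4.34% lower. The groups lay apart with transgenic higher for 2 of 10, and for 2.79% of all probe sets. The median difference of the 10 was 0.28, from -0.22 to 0.64, and that of all probe sets was 0.01. These 4 probe sets were measured in the same mice and are not independent of each other.

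**Figure D1:**
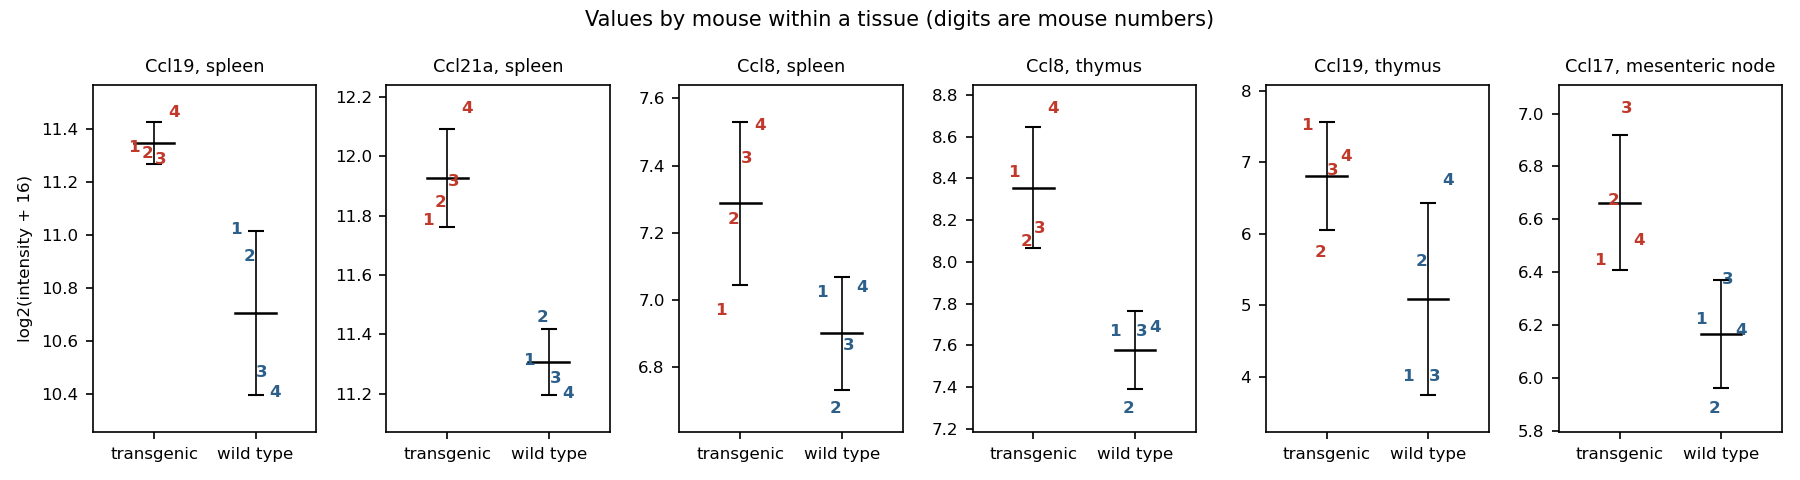
Values of Ccl19, Ccl21a and Ccl8 in spleen, Ccl8 and Ccl19 in thymus and Ccl17 in mesenteric lymph node, on the log2(intensity + 16) scale of each panel's own range (vertical axis), transgenic left and wild type right. Each digit is the number of 1 mouse, the bar is the mean and the whiskers are the SD of 4 mice. The transgenic and wild type values do not overlap for Ccl19 and Ccl21a in spleen, Ccl8 in thymus and Ccl17 in mesenteric node, and they overlap for Ccl8 in spleen and Ccl19 in thymus.

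Lists of other genes were also compared between the genotypes in spleen, and their part in the chemokine values was not tested. Here and below, a list mean covers all measured genes of the list, while counts and median differences cover those tested in the tissue. The list of germinal centre and follicular helper T cell genes had the largest median difference of the lists in spleen, 1.06 over 12 genes tested, with 1 past the threshold and 11 at an unadjusted limma p under 0.05, all higher in transgenic. Its mean lay between 7.50 and 8.43 in transgenic and between 6.62 and 6.85 in wild type spleens. The gene that passed was Rgs13, a regulator of G protein signalling in germinal centre B cells (log2 difference 2.89, limma adjusted p = 0.0466). The mean over 11 T cell genes lay between 8.99 and 9.25 in transgenic spleens and between 8.76 and 8.87 in wild type spleens, with a median difference of 0.28 over these genes, of which 0 passed the threshold and 7 had an unadjusted limma p under 0.05. The mean of the erythroid and red pulp list ran from 9.69 to 10.3 in transgenic and from 10.2 to 10.8 in wild type spleens, with a median difference of -0.35. The exocrine pancreas list had a median difference of -0.75 in spleen, with means of 5.39 to 5.77 in transgenic and 5.76 to 7.28 in wild type. Of its 4 genes tested there 0 passed the threshold and 2 were lower in transgenic at an unadjusted limma p under 0.05. Among stromal genes of the reticular and follicular dendritic cell list, 0 of 18 passed the threshold and 4 were higher in transgenic at an unadjusted limma p under 0.05, with a median difference of 0.13. Its mean ran from 8.80 to 9.13 in transgenic and from 8.82 to 8.99 in wild type spleens, which overlap. Madcam1, an addressin of marginal sinus and mucosal endothelium, was the one with the smallest p in spleen (log2 difference 0.86, limma adjusted p = 0.379). Within mice 1 and 2, the spleens with high Actb ratios, Ccl19 differed by 0.35 and Ccl21a by 0.43. Within mice 3 and 4 the differences were 0.93 for Ccl19 and 0.81 for Ccl21a, so the direction was the same in both pairs. Without the spleen of wild type mouse 4, which carried thymocyte transcripts, they were 0.53 for Ccl19 and 0.59 for Ccl21a.

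In thymus Ccl8 was the member whose groups lay apart. It read 8.43, 8.10, 8.16 and 8.73 in transgenic thymuses, against 7.66, 7.30, 7.67 and 7.68 in wild type thymuses. The lowest transgenic value, of mouse 2, exceeded the highest wild type value, of mouse 4. Ccl8 was 1.71-fold higher in transgenic thymus (log2 difference 0.78 ± 0.16, SE, 95% interval 0.41 to 1.14; limma unadjusted p = 0.00109, adjusted p = 0.427; exact permutation p = 0.0286). In 1 limma fit over all 32 arrays, which pools the spread of the 4 tissues, the difference was 0.79 and passed the threshold (adjusted p = 0.0418). That fit counts the 4 arrays of a mouse as independent, which they are not. In that fit 0.213% of all probe sets passed, against 0.0037% in the fit of the thymus alone. The Ccl8 differences were 0.78 within mice 1 and 2 and 0.77 within mice 3 and 4. The Actb ratio of thymus was 2.25 and 2.23 in transgenic mice 1 and 2, against 1.78 and 1.68 in wild type mice 1 and 2, and 1.34 to 1.43 in mice 3 and 4. Without wild type mouse 2, whose thymus held muscle transcripts and had the lowest Ccl8 value, the difference was 0.68.

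Ccl19 and Cxcl13 were dim in thymus, and their groups overlapped. The deposited Ccl19 intensities were 218, 27.8, 120 and 126 in transgenic thymuses and -37.5, 30.5, -44.4 and 94.3 in wild type thymuses. Only wild type mice 1 and 3 had values below 0, and the intensity of transgenic mouse 2 lay below those of wild type mice 2 and 4. The log2 difference of 1.72 ± 0.65 (SE; limma adjusted p = 0.664) rests partly on the lowest possible value and was 0.88 with 64 added in place of 16. For Cxcl13, the probe set 1417851_at read 7.50, 7.49, 6.20 and 7.24 in transgenic and 6.70, 6.19, 6.09 and 6.30 in wild type thymuses, a log2 difference of 0.79 ± 0.29 (SE; limma adjusted p = 0.662). In 1448859_at it read 6.20, 6.35, 6.36 and 6.93 in transgenic and 6.29, 5.49, 6.09 and 5.98 in wild type thymuses, a difference of 0.50 ± 0.21 (SE; limma adjusted p = 0.675). In both probe sets 1 transgenic thymus lay within the wild type range, mouse 3 in the first and mouse 1 in the second.

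Over the 10 probe sets tested in thymus, 0 passed the threshold (0.0037% of all probe sets did), and 4 of 10 were higher at an unadjusted p under 0.05, against 3.98% of all. The groups lay apart with transgenic higher for 1 of 10 and for 2.54% of all probe sets. The median difference of the members was 0.51, from -0.15 to 1.72, and that of all probe sets was -0.000103. The mean of the B cell list stood at 6.62 to 7.28 in transgenic and 6.34 to 6.62 in wild type thymuses, with a median difference of 0.63 over 6 genes tested, of which 0 passed the threshold and 5 had an unadjusted limma p under 0.05. Its defining marker Ms4a1 lay between 7.26 and 8.53 in transgenic and between 6.62 and 7.45 in wild type thymuses. Means of the dendritic cell list ran from 6.96 to 7.52 in transgenic and from 7.11 to 7.15 in wild type thymuses, and those of the adipocyte list from 7.98 to 8.69 in transgenic and from 7.37 to 8.12 in wild type thymuses. The macrophage and monocyte list did not overlap, at 7.77 to 7.98 in transgenic and 7.62 to 7.72 in wild type thymuses, with 0 of 11 genes past the threshold and 1 at an unadjusted limma p under 0.05. The stroma list stood at 7.55 to 8.02 in transgenic and 7.51 to 7.56 in wild type thymuses, with 0 of 15 past the threshold and 4 higher at an unadjusted limma p under 0.05. The T cell list had means of 11.2 to 11.38 in transgenic and 11.42 to 11.44 in wild type thymuses. The part of these cells in the thymic values was not tested.

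In the mesenteric lymph node Ccl17 was the member whose groups lay apart. It read 6.44, 6.67, 7.02 and 6.52 in transgenic and 6.22, 5.88, 6.37 and 6.18 in wild type nodes. The lowest transgenic value, of mouse 1, stood just above the highest wild type value, of mouse 3. The log2 difference was 0.50 ± 0.16 (SE, fold 1.41; limma unadjusted p = 0.0116, adjusted p = 0.836), and 0.35 without the 3 arrays that held pancreas transcripts. Ccl8 read 8.23, 7.85, 8.07 and 7.94 in transgenic and 7.45, 7.44, 7.59 and 7.90 in wild type nodes, with wild type mouse 4 inside the transgenic range. Its difference of 0.42 ± 0.14 (SE; limma adjusted p = 0.859) was 0.24 without those 3 arrays. In this node 0 of 11 probe sets passed the threshold (0% of all probe sets did), 2 of 11 were higher at an unadjusted p under 0.05 (3.22% of all), and the groups lay apart with transgenic higher for 1 of 11 (2.71% of all). The germinal centre and follicular helper list did not overlap in this node either, at 8.05 to 8.36 in transgenic and 7.61 to 8.02 in wild type, and the macrophage and monocyte list was at 9.50 to 9.59 in transgenic and 9.62 to 9.89 in wild type. Their part was not tested. The median difference of the members was -0.00179, from -0.12 to 0.50, and that of all probe sets was 0.01.

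In the peripheral lymph node, where 0 of 11 probe sets passed the threshold (0.037% of all did), no member reached an unadjusted p under 0.05 in either direction (4.21% of all were higher and 4.15% lower). Ccl19 was the member whose groups lay apart, and here transgenic was the lower one. It read 12.04, 11.93, 11.98 and 12.00 in transgenic and 12.18, 12.05, 12.13 and 12.19 in wild type nodes, a log2 difference of -0.15 ± 0.08 (SE; limma adjusted p = 0.673), which was -0.02 without normalization. Such a separation with transgenic lower was seen in 2.92% of all probe sets. The T cell list had means of 10.08 to 10.30 in transgenic and 10.30 to 10.38 in wild type nodes, which just overlap, with a median difference of -0.22, 0 of 11 genes past the threshold and 5 lower at an unadjusted limma p under 0.05. The adipocyte list had a median difference of -0.45, with 0 of 6 past the threshold and 2 lower at an unadjusted limma p under 0.05. The germinal centre and follicular helper list stood at 7.66 to 8.34 in transgenic and 6.97 to 7.25 in wild type nodes. The part of these cells in the Ccl19 values was not tested. Ccl22 read 9.63, 9.79, 10.37 and 10.09 in transgenic and 10.29, 10.17, 10.45 and 10.19 in wild type nodes, which overlap. Ccl8, at 11.84, 11.31, 12.18 and 11.77 in transgenic and 11.91, 11.81, 11.57 and 11.50 in wild type nodes, showed no separation in the tissue where it read highest. The member differences ran from -0.31 to 0.16, with a median of 0.07 beside -0.01 over all probe sets.

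**Figure D2:**
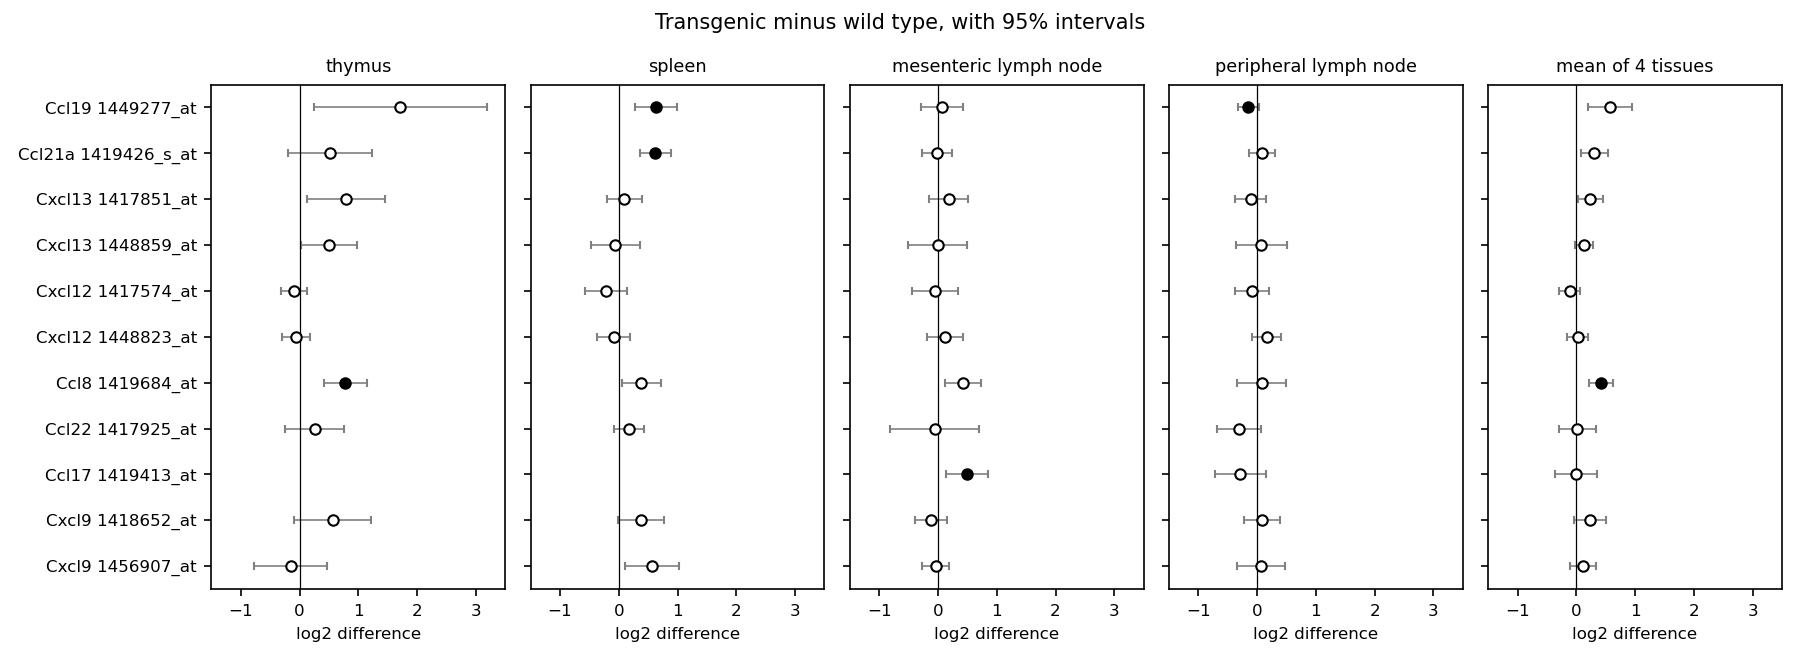
Log2 differences, transgenic minus wild type (horizontal axes), of the 11 member probe sets tested in at least 1 tissue, in each tissue and for the mean of each mouse's 4 tissues. Points are limma estimates from 4 mice per genotype and whiskers are 95% intervals. Filled points mark groups that do not overlap: Ccl19 in spleen and, with transgenic lower, in peripheral node, Ccl21a in spleen, Ccl8 in thymus and in the mean of 4 tissues, and Ccl17 in mesenteric node.

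With each mouse reduced to the mean of its 4 tissues, Ccl8 averaged 8.85 in transgenic and 8.43 in wild type mice. The 4 transgenic means lay above the 4 wild type means, with a log2 difference of 0.42 ± 0.09 (SE; limma unadjusted p = 0.00156, adjusted p = 0.282). The differences of the other members with an unadjusted p under 0.05 were 0.57 ± 0.17 for Ccl19, 0.31 ± 0.10 for Ccl21a and 0.24 ± 0.10 for the Cxcl13 probe set 1417851_at (SE; limma adjusted p = 0.439, 0.513 and 0.638). Of the 11 probe sets 0 passed the threshold (0.0556% of all did) and 4 had an unadjusted p under 0.05 with transgenic higher (4.42% of all). The groups lay apart with transgenic higher for 1 of 11 and for 3.12% of all.

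Whether the transgenic effect differed between 2 tissues was tested on the differences within each mouse. No member passed the threshold in any of the 6 pairs of tissues, and the share of all probe sets that did was 0.00684% for thymus against spleen and 0% for the other 5 pairs. The members with the smallest p were Ccl19 in spleen against peripheral node (difference of effects 0.79 ± 0.19, SE; limma unadjusted p = 0.00258, adjusted p = 0.536) and Ccl21a in spleen against mesenteric node (0.64 ± 0.17, SE; limma unadjusted p = 0.00401, adjusted p = 0.683). Ccl17 in mesenteric against peripheral node followed (0.78 ± 0.22, SE; limma unadjusted p = 0.00731, adjusted p = 0.847). The higher values of Ccl19 in transgenic spleen and the lower ones in transgenic peripheral node are thus not shown to differ by this test.

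The tissues themselves differed far more. For comparisons between tissues, the 32 arrays were brought to 1 distribution and each mouse's difference between 2 tissues was tested over the 8 mice with limma. The counts of members called were set beside the share of all probe sets called, since many probe sets differ in most pairs of tissues.

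Ccl8 had the widest range of levels over the 4 tissues among the members after Ccl19 and Cxcl13, and was the one that set the 2 kinds of lymph node apart. In thymus its lowest, median and highest values were 7.32, 7.93 and 8.78. In spleen they were 6.55, 6.91 and 7.42, in mesenteric nodes 7.61, 8.04 and 8.39, and in peripheral nodes 11.16, 11.65 and 12.04. No array of another tissue came near the peripheral nodes. Ccl8 was lower in the mesenteric than in the peripheral node of 8 of 8 mice, with a log2 difference of -3.62 ± 0.11 (SE; limma adjusted p = 3.37e-06), a fold of 12.3. In the 3 mice whose nodes held neither muscle nor pancreas transcripts the differences were -3.15 and -3.53 in transgenic mice 2 and 4 and -3.29 in wild type mouse 4. In a limma fit of those 3 mice the difference was -3.3 (adjusted p = 0.146), and 0 of all 27893 probe sets passed the threshold. Ccl8 was 12-fold lower in thymus and 24.5-fold lower in spleen than in peripheral node, and 2.04-fold higher in thymus than in spleen (limma adjusted p = 1.49e-05), while thymus and mesenteric node had overlapping levels (log2 difference 0.04, limma adjusted p = 0.758).

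Between mesenteric and peripheral node 5 of 11 member probe sets passed the threshold, all lower in the mesenteric node (2.18% of all probe sets were called lower). Beside Ccl8 these were Ccl19 (-0.32), the Cxcl13 probe set 1417851_at (-0.36), the Cxcl12 probe set 1417574_at (-0.42) and the Cxcl9 probe set 1418652_at (-0.47), all log2 differences. The second probe sets of Cxcl13, Cxcl12 and Cxcl9 had differences of -0.15, -0.07 and -0.10 that did not pass (limma adjusted p from 0.485 to 0.629). Leaving out any 1 of the 8 mice left between 1 and 3 of the 5 calls, and Ccl8 was called each time. Ccl21a was at 12.87 ± 0.14 in mesenteric and 12.81 ± 0.11 in peripheral nodes (SD, n = 8 each; limma adjusted p = 0.683).

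The Ccr7 ligands Ccl19 and Ccl21a differed from each other most in the thymus. Ccl19 read 4.00 at the lowest, 6.23 at the median and 7.55 at the highest in thymus. Its values were 10.34, 11.10 and 11.41 in spleen, 11.22, 11.61 and 11.87 in mesenteric and 11.80, 11.92 and 12.05 in peripheral nodes. The thymic level was 32.6-fold lower than the splenic one and 63.3-fold lower than that of peripheral nodes (log2 differences -5.03 and -5.98, limma adjusted p = 3.24e-06 and 5.67e-07), and every neighbour in the order peripheral node, mesenteric node, spleen, thymus passed the threshold. Without normalization spleen against mesenteric node did not pass (limma adjusted p = 0.0603). The call of mesenteric against peripheral node (limma adjusted p = 0.0458) was lost on leaving out any mouse but wild type mouse 4 (0.0762 to 0.107). It was also lost without the filter (0.0561), with a pseudocount of 1 (0.0574), without normalization (0.157) and with a common median (0.17). Ccl21a, in contrast, read 10.27, 11.23 and 11.84 in thymus and 11.15, 11.57 and 12.13 in spleen, which overlap, and was 1.37-fold lower in thymus (limma adjusted p = 0.0485). That call was lost on leaving out any mouse but wild type mouse 4 (limma adjusted p from 0.0542 to 0.122), without the filter (0.0975) and with a pseudocount of 1 (0.0636). It was 3.23-fold lower in thymus and 2.36-fold lower in spleen than in peripheral nodes (limma adjusted p = 5.33e-05 and 1.34e-05).

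Cxcl13, the B cell chemokine, was low in thymus by both of its probe sets. In 1417851_at it averaged 6.72 ± 0.63 in thymus, 11.32 ± 0.16 in spleen, 11.53 ± 0.20 in mesenteric and 11.89 ± 0.16 in peripheral nodes (SD, n = 8 each). The difference between spleen and mesenteric node did not pass the threshold (limma adjusted p = 0.185). The thymic level was 24.3-fold lower than in spleen and 35.9-fold lower than in peripheral nodes (limma adjusted p = 1.36e-07 and 2.91e-08), and in 1448859_at it was 23.4-fold and 28.1-fold lower.

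Cxcl12, the stromal chemokine that acts through Cxcr4, had the narrowest range among the members. The probe set 1448823_at averaged 11.54 ± 0.13 in thymus, 11.93 ± 0.16 in spleen, 12.03 ± 0.16 in mesenteric and 12.10 ± 0.16 in peripheral nodes (SD, n = 8 each). Only the thymus differed, 1.48-fold lower than peripheral node (limma adjusted p = 0.000165). In the probe set 1417574_at thymus was lowest, at 8.99 ± 0.12 (SD, n = 8), 2.12-fold lower than peripheral node (limma adjusted p = 4.74e-06). In that probe set spleen was highest, at 10.32 ± 0.25, against 9.65 ± 0.24 in mesenteric nodes (SD, n = 8 each), 1.59-fold higher in 8 of 8 mice (limma adjusted p = 0.00189). This was the member called higher in spleen than in mesenteric node, while its other probe set differed by -0.10 (limma adjusted p = 0.354), so the 2 probe sets did not give the same order.

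**Figure D3:**
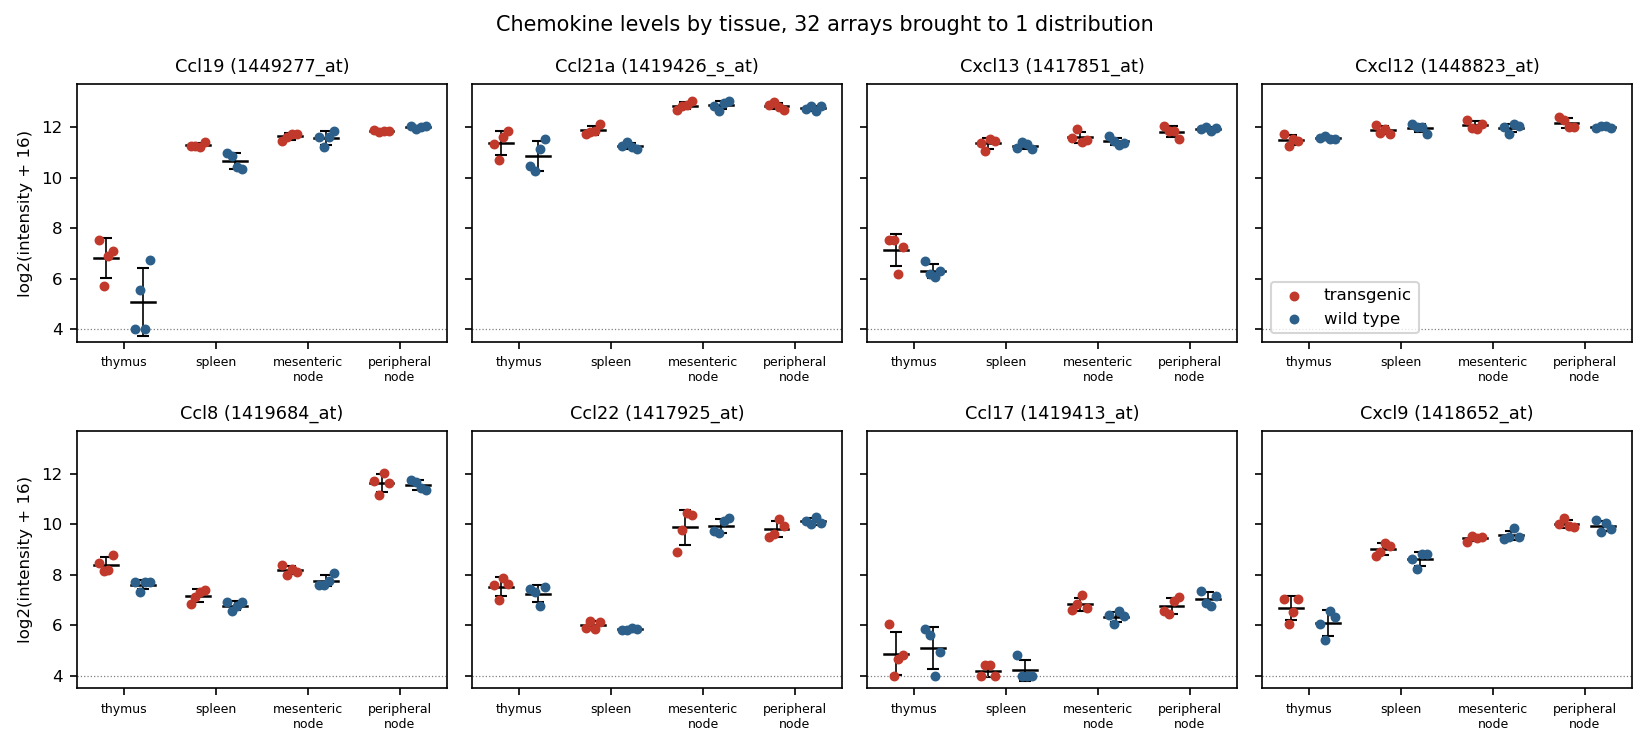
Levels of the 8 chemokines, each by its brightest probe set, on the log2(intensity + 16) scale (vertical axis) in thymus, spleen, mesenteric and peripheral lymph node, with all 32 arrays brought to 1 distribution. Dots are mice, transgenic left and wild type right, with mean and SD of 4 mice, and the dotted line is the lowest possible value, 4. Ccl8 stands near 11.6 in peripheral nodes and at 8.01 or below in the mean of each other tissue, and Ccl19 and Cxcl13 are low in thymus alone.

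The Ccr4 ligands Ccl22 and Ccl17 were low in spleen. Ccl22 read 6.75, 7.48 and 7.88 in thymus at the lowest, median and highest, 5.80, 5.87 and 6.18 in spleen, 8.92, 9.95 and 10.44 in mesenteric and 9.48, 10.02 and 10.30 in peripheral nodes. It was 16.5-fold lower in spleen than in peripheral nodes and 2.76-fold higher in thymus than in spleen (limma adjusted p = 7.41e-08 and 2.82e-05). The difference between the 2 kinds of node did not pass the threshold (limma adjusted p = 0.806). Ccl17 averaged 4.99 ± 0.79 in thymus, 4.21 ± 0.31 in spleen, 6.59 ± 0.34 in mesenteric and 6.91 ± 0.30 in peripheral nodes (SD, n = 8 each), and in spleen and thymus it did not pass the filter. Between the 2 kinds of node its difference did not pass the threshold (limma adjusted p = 0.143).

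Cxcl9, the interferon gamma induced ligand of Cxcr3, followed the order peripheral node, mesenteric node, spleen, thymus. In 1418652_at it averaged 6.38 ± 0.55 in thymus, 8.82 ± 0.32 in spleen, 9.50 ± 0.15 in mesenteric and 9.97 ± 0.18 in peripheral nodes (SD, n = 8 each). It was 12.1-fold lower in thymus than in peripheral node (limma adjusted p = 2.23e-07). In 1456907_at the order was the same, with 6.14 ± 0.43, 7.00 ± 0.43, 7.39 ± 0.11 and 7.49 ± 0.25 (SD, n = 8 each), and the difference between the 2 kinds of node did not pass the threshold (limma adjusted p = 0.629). Its call for spleen against mesenteric node (limma adjusted p = 0.0282) was lost without normalization (0.656) and without transgenic mouse 1 (0.0513), wild type mouse 2 (0.0638) or wild type mouse 4 (0.0718). In this probe set 5 of 8 mice were lower in spleen than in mesenteric node. The mean difference was -0.07 in transgenic and -0.69 in wild type mice, a contrast that did not pass the threshold (limma adjusted p = 0.777).

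Of the member probe sets tested, 11 of 11 were lower in thymus than in peripheral node (31.5% of all probe sets were called lower) and 10 of 11 lower in thymus than in mesenteric node (29.9%). Between thymus and spleen 8 of 10 were lower in thymus (28%) and 2 of 10, Ccl8 and Ccl22, higher (33.4%). Spleen was lower than peripheral node in 8 of 11 (24.7%), and than mesenteric node in 7 of 11 (22.7%), with 1 of 11 higher (22%). The median member difference was -2.58 for thymus against peripheral node, beside 0.02 over all probe sets, -1.10 for thymus against spleen, beside 0.06, and -0.96 for spleen against peripheral node, beside -0.04.

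The receptors of these chemokines were measured on the same arrays. The list of receptors and scavengers holds 18 symbols, of which 13 were measured. Between the genotypes 0 passed the threshold of 11 tested in each kind of node, 11 in spleen and 10 in thymus. Those with the smallest p in a tissue were Ccr2, the monocyte receptor, in mesenteric node (log2 difference 0.38, limma adjusted p = 0.613), Cxcr3 in spleen (0.52, limma adjusted p = 0.536), and Ackr1, a scavenger on venules and red cells, in spleen (-0.95, limma adjusted p = 0.541). At an unadjusted limma p under 0.05 stood 0 receptors in peripheral node and 1 in mesenteric node, higher in transgenic (3.22% of all). In spleen 1 was higher and 1 lower (4.21% and 4.34% of all), and in thymus 2 were higher (3.98% of all) and 1 lower. In thymus these included Ccr2 (-0.44, limma adjusted p = 0.607) and Cxcr5 (0.43, limma adjusted p = 0.645).

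By tissue, receptor and ligand did not always share an order. Cxcr5, the B cell receptor of Cxcl13, was 20.4-fold lower in thymus than in spleen and 21.3-fold lower than in peripheral node (limma adjusted p = 3.09e-08 and 5.79e-09), and Cxcl13 was low in thymus as well. Ccr7 was 5.91-fold lower in thymus than in peripheral node (limma adjusted p = 1.45e-05). Cxcr4 was 2.14-fold higher in thymus than in peripheral node (limma adjusted p = 2.02e-05), where its ligand Cxcl12 was 1.48-fold lower. Ccr4 was 1.78-fold higher in thymus than in spleen (limma adjusted p = 0.00218), the direction also seen for Ccl22. Against peripheral and mesenteric node Ccr4 was 1.49-fold and 1.56-fold higher in thymus (limma adjusted p = 0.0355 and 0.0247). In those comparisons Ccl22 was 5.97-fold and 5.72-fold lower in thymus, and Ccl17 3.78-fold and 3.02-fold lower. Ccr4 was dim, with tissue means from 4.83 to 5.66. Ackr3, the scavenger of Cxcl12, was 3.69-fold higher in spleen than in peripheral node (limma adjusted p = 1.53e-05). Of the 12 receptors and scavengers tested between thymus and peripheral node, 10 were called lower and 2 higher in thymus, beside 31.5% and 34.1% of all probe sets.

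**Figure D4:**
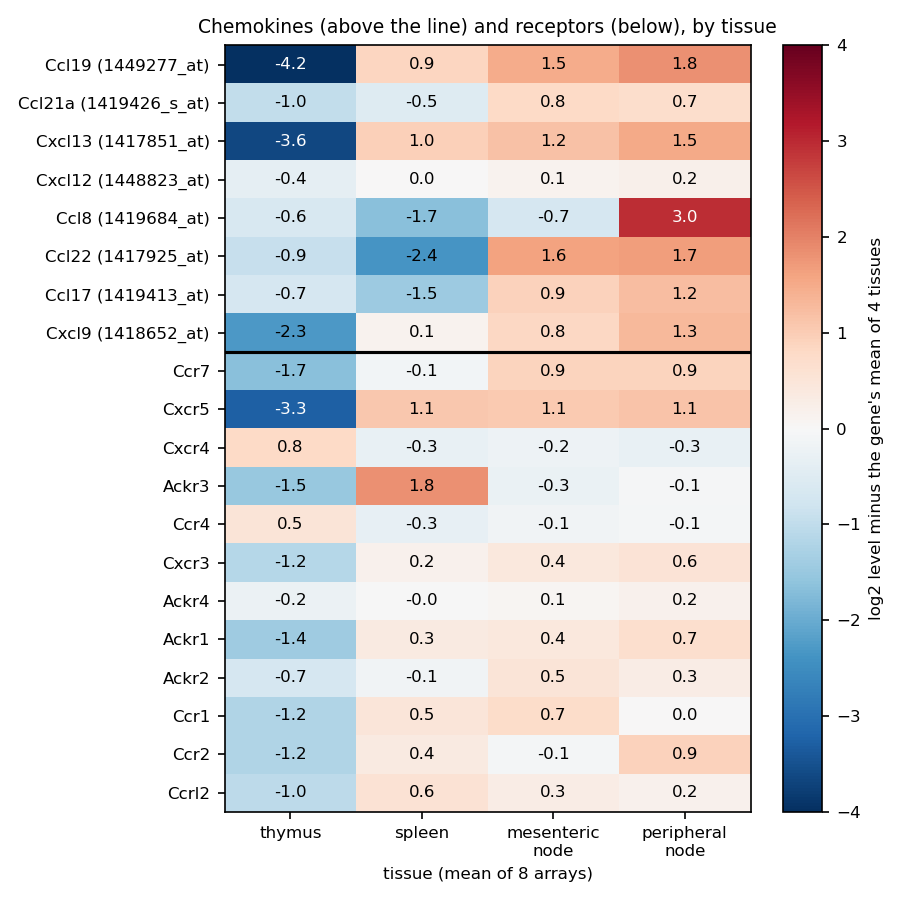
Levels of the 8 chemokines (above the line, brightest probe set each) and of 12 receptors and scavengers (below) in each tissue, as the mean log2 level of 8 arrays minus the gene's mean over the 4 tissues (colour and printed value). Ccl8 stands at 2.96 in peripheral node and below 0 in the other tissues. Most rows, among them Ccl19, Cxcl13 and Cxcr5, have their lowest value in thymus.

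The lymphotoxin and noncanonical NF-kappa B genes, through which lymphocytes sustain chemokine production by stroma, were described from a list of 12, all measured. In spleen 0 of 11 tested passed the threshold and 3 had an unadjusted limma p under 0.05 with transgenic higher (4.21% of all). Tnfsf11, which encodes the TNF family ligand RANKL, had the smallest p (log2 difference 0.79, limma adjusted p = 0.422). Lta, a lymphotoxin subunit, differed by 0.52 and Ltb, its membrane-anchoring partner, by 0.31 (limma adjusted p = 0.575 for both). In thymus 0 of 8 passed and 4 had an unadjusted limma p under 0.05 with transgenic higher (3.98% of all). Among them were Ltb (0.57, limma adjusted p = 0.517) and the NF-kappa B subunit Relb (0.47, limma adjusted p = 0.577). In both kinds of node 0 of 11 passed and 0 had an unadjusted limma p under 0.05. The median differences were 0.37 in thymus, 0.23 in spleen, -0.07 in mesenteric and -0.03 in peripheral node.

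Of the interferon gamma response genes, the program to which Cxcl9 belongs, 13 of 14 listed were measured and 0 passed the threshold in any tissue. In spleen 2 of 11 tested had an unadjusted limma p under 0.05 with transgenic higher (4.21% of all probe sets). These were Socs1, a feedback inhibitor of cytokine signalling (0.60, limma adjusted p = 0.528), and Irf1, a transcription factor (0.30, limma adjusted p = 0.583). In thymus Socs1 differed by -0.40 (limma adjusted p = 0.664), so that the 2 tissues gave opposite signs for it, which was not tested as a difference. The median over the list was 0.05 in spleen and 0.16 in thymus.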

How the data were processed

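The arrays measured RNA of 4 tissues from 4 mice per genotype. Per the labels' protocols, 5 µg of total RNA was labelled with biotin for Affymetrix arrays. The authors deposited linear intensity values of 45101 probe sets, of which 14.9% to 18.4% per array were negative. How these were summarised and scaled is not given in the sources used here. Precision is limited by the number of mice, since arrays have no depth of reads.

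The log2 of each deposited value plus 16 was used, with those below 0 raised to 0. Quantile normalization was over the 8 arrays of a tissue for genotypes, and all 32 for tissues and mouse means. The 64 control probe sets were removed, and 27022 per tissue with a mean above the 40th percentile were kept. Limma 3.58.1 in R 4.3.3 fitted transgenic minus wild type in each tissue, and each mouse's differences between tissues, with Benjamini-Hochberg adjustment over all probe sets. The fits were tested on simulated data. For list genes the brightest probe set was used. Every member is named, every measured receptor may be, and from each other list up to 4 genes with the smallest limma p in a tissue.

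Tissues of a mouse are paired by the animal. Mouse numbers were not taken to pair the genotypes: over 16 pairs of same-numbered arrays the correlation of deviations from the group means ran from -0.44 to 0.33, and 8 exceeded 0.1. The members, lists and tests were chosen with earlier results of these data known. Alternatives were pseudocounts of 1 and 64, a common median or no normalization, no filter, a block for mouse number, 1 fit over 32 arrays, exact permutation and leaving out each mouse. Added after seeing the data were a block for mice 1 and 2 against mice 3 and 4 and leaving out arrays or mice with muscle or pancreas transcripts.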

Additional observations from a re-analysis of the deposited data

Results flagged for a closer look

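Each group of 4 mice was checked for a single array far from the others, and 2 of 84 groups held one. Chance flags about 1 in 20 groups, more than the share seen here. In the transgenic mesenteric nodes the Cxcl12 probe set 1417574_at read 9.91 in mouse 1, while the other 3 lay between 9.31 and 9.32. That node also held pancreas transcripts, with a list mean of 12.7. In the wild type thymuses Ccl8 read 7.30 in mouse 2, while the other 3 lay between 7.66 and 7.68. That thymus had a skeletal muscle list mean of 7.21, against 5.40 to 5.69 in the other wild type thymuses. Whether these transcripts bear on the values was not tested.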

How the results depend on the processing

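No alternative but 1 brought a member past the threshold between the genotypes. Ccl8 in thymus passed in 1 fit over all 32 arrays, which made the count there 1. That fit takes no account of the arrays that share a mouse. The calls over all probe sets were 65 in that fit and 1 in the fit of the thymus alone. By the exact permutation test at an unadjusted p under 0.05 the counts were 1 in peripheral node, 1 in mesenteric node, 2 in spleen, 1 in thymus and 1 for the mean of 4 tissues. With 4 against 4 mice this is reached only where the groups do not overlap, so these counts repeat those of groups that lay apart. In the direction of these members, groups lay apart for 2.92%, 2.71%, 2.79%, 2.54% and 3.12% of all probe sets, in the same order. With the replicate block for mouse number the count was 0 in every comparison of genotypes and of effects between tissues, and leaving out each mouse gave 0 to 0. Without a replicate block the counts between tissues were unchanged.

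Of the 5 members called between mesenteric and peripheral node, 3 passed with a pseudocount of 1, and 2 each with a common median, no normalization and no filter. Over all probe sets the calls were 1250 with a pseudocount of 1, 923 with a common median, 686 without normalization and 1403 without the filter. Leaving out each mouse left 1 to 3. Without the 5 mice with muscle or pancreas transcripts in a node 0 members passed, and 0 of all probe sets did. For that pair Ccl21a differed by -0.050 without normalization and Ccl22 by 0.25 without those 5 mice, with -0.13 to 0.042 on leaving out each mouse. Between thymus and mesenteric node Ccl8 differed by -0.040 with a common median (-0.041 to 0.076 on leaving out each mouse), and between spleen and mesenteric node the Cxcl13 probe set 1448859_at by 0.057 without normalization (-0.22 to 0.028). None of these reached the threshold in either direction. The cause of these changes was not tested. Leaving out each mouse gave counts of 7 to 8 for spleen against mesenteric node, 8 to 9 for spleen against peripheral node and 9 to 10 for thymus against spleen, with 10 and 11 for thymus against mesenteric and peripheral node.

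Ccl17 in mesenteric node differed by 0.32 with a pseudocount of 64, Ccl19 in the mean of 4 tissues by 1.06 with 1 and 0.36 with 64, Ccl8 in spleen by 0.21 without normalization, and the Cxcl13 probe set 1448859_at in thymus by 0.30 with 64. Ccl19 in thymus did not pass the filter with a pseudocount of 1. Blocking mice 1 and 2 against mice 3 and 4 gave adjusted p of 0.3 for Ccl19 and 0.263 for Ccl21a in spleen and 0.264 for Ccl8 in thymus (limma). Of the 38 genotype differences given only in ranges, 22 turned sign under at least 1 alternative, at sizes up to 0.35. Dim probe sets such as Ccl17 and thymic Ccl19 limit what signal over background can show.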

Other observations

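Other chemokines were described from a list of 28, all measured, and 0 passed the threshold between the genotypes in any tissue by limma. In thymus 5 of 17 tested had an unadjusted p under 0.05, 4 with transgenic higher (3.98% of all probe sets). These included Pf4, a platelet chemokine (log2 difference 0.42, limma adjusted p = 0.558), and Ccl9 (0.51, limma adjusted p = 0.607). In peripheral node Ccl12, a monocyte chemokine of the mouse, read 8.01 on average in transgenic and 8.78 in wild type mice (log2 difference -0.77, limma adjusted p = 0.353).

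By tissue, Ccl12 was the other chemokine whose profile most resembled that of Ccl8, with mean levels of 5.04 in thymus, 4.04 in spleen, 5.46 in mesenteric and 8.27 in peripheral nodes. Ccl25, the chemokine of thymic epithelium and small intestine, averaged 12.1 in thymus and 5.12 to 5.39 elsewhere, and Ppbp, of platelets, averaged 11.3 in spleen.

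Over 32 arrays that share 4 tissues and 8 mice, the profiles most like each member among 14057 genes were found by Pearson correlation, given as a description. For Ccl8 they were Ccl12 (r = 0.96) and Bpifb2 (r = 0.94), for Ccl19 Gimap4 and Capg (r = 0.98 each) and for Ccl21a Apoe (r = 0.95) and Fscn1 (r = 0.94). For Cxcl13 they were B3gnt5 and Hhex (r = 0.99 each), for Cxcl12 Cobll1 and Ywhag (r = 0.90 each) and for Cxcl9 Calhm6 and Tmem243 (r = 0.98 each). Papss2 was among the nearest profiles of both Ccl22 (r = 0.97) and Ccl17 (r = 0.93), beside Spsb1 for Ccl22 (r = 0.97) and Fnbp1l for Ccl17 (r = 0.93). Among the members, Ccl19 and Cxcl13 had r = 0.96 and Cxcl13 and Ccl8 had r = 0.30. The arrays fall into 4 tissues, so few independent points stand behind these values.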
